A study of Mus musculus with 4 samples.

Results

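The Zic genes encode transcription factors with a block of C2H2 zinc fingers, and 4 of them, Zic1, Zic2, Zic4 and Zic5, were read here in tissues of the early somite mouse embryo. The members were all probe sets whose single gene symbol in GEO's platform annotation was one of these names, which gave 8 probe sets of 45101 on the array and 4 genes of 18193 with such a symbol. Zic1 and Zic4 had 2 probe sets each, Zic2 had 1 and Zic5 had 3. The arrays compared 2 samples of foregut endoderm, dissected from the anterior intestinal portal, with 2 samples of non-endoderm tissue, in which mesoderm of the heart was joined with mesoderm and ectoderm of the head folds. All came from ARC/s embryos at embryonic day 8.5 with 4 to 5 somites (3 to 5 in the source label), and each sample pooled 15 to 20 tissue pieces. The tissues numbered 1, here the first experiment, were separated by mechanical dissection alone, and those numbered 2, the second experiment, with trypsin and pancreatin as well, so that experiment and way of dissection cannot be told apart. The series' design text names the enzymes without this distinction. A description field calls foregut endoderm 2 ectoderm, whereas its other labels name foregut endoderm, and 10 of 11 foregut endoderm markers were at least 2-fold higher in it than in mesoderm and ectoderm 2. Since the labels do not say how the animals were divided between samples, p-values measure the spread between these samples only.

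Zic proteins are related to the Gli factors of hedgehog signalling and to Drosophila odd-paired, and their zinc fingers can bind Gli sites. In vertebrate embryos the family acts in the neural plate, at its border and in the dorsal neural tube. Zic1 promotes neural crest formation together with Pax3 in Xenopus and is needed in the mouse cerebellum, Zic2 is a gene of holoprosencephaly and neural tube closure, Zic4 acts beside Zic1 in the cerebellum, and Zic5 acts in neural crest and neural tube closure. The genes lie in neighbouring pairs, Zic1 beside Zic4 on mouse chromosome 9 and Zic5 beside Zic2 on chromosome 14.

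Promoter windows are printed for the members found in the RefSeq table (build GRCm38.p6), because Zic1 was measured on these arrays while its direct neighbour Zic4 lay at the lowest values. The table matched 3 of the 4 members, all but Zic2. Each window holds the 250 bases before the annotated start, 5′ to 3′ on the gene's own strand, with CpG dinucleotides in capitals. The Zic1 window is chr9:91365769-91366018 on the minus strand, the Zic4 window is chr9:91368722-91368971 on the plus strand and the Zic5 window is chr14:122465659-122465908 on the minus strand. Zic1 and Zic4 are thus transcribed away from each other. The RefSeq gene table gives Zic4 a span that overlaps Zic1, so the Zic4 window stands for 1 start among several.
Zic1: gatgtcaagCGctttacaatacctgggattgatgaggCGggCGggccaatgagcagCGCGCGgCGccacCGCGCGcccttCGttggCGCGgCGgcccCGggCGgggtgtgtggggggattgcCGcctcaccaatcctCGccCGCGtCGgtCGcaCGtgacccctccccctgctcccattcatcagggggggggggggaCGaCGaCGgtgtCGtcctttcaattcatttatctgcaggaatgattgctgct
Zic4: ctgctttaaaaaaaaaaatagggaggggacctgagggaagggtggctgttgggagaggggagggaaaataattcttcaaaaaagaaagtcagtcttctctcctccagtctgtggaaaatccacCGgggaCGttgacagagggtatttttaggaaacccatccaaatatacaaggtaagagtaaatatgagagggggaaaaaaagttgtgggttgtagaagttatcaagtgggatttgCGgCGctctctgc
Zic5: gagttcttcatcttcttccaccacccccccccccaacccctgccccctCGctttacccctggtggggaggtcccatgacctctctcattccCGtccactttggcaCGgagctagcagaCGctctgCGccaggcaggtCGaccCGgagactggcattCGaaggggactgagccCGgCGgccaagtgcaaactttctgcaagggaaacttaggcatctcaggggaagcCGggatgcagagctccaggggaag

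The windows differed in base composition. The Zic1 window held 27 CpG and 66% G and C, the Zic5 window 11 CpG and 62.4%, and the Zic4 window 4 CpG and 44.4%. Over all 32851 windows of the table the median was 6 CpG and 52.4% G and C. At least as many CpG as Zic1 were found in 8.56% of them, as Zic5 in 35.6% and as Zic4 in 62.2%. Motifs were searched on both strands. CCAAT occurred at 2 places in the Zic1 window and in 33.8% of all windows, GGGCGG at 2 places and in 32.7%, and CACGTG at 1 place and in 6.02%. GGGCGG and CACGTG hold a CpG themselves. The Zic4 and Zic5 windows held none of these 3 motifs, and none of the 3 windows held TATAAA (12.4% of all windows), CCTGCTG, part of the sequence found at Zic-bound sites (8.44%), or GACCACCC, the core of the Gli site (0.703%). A match describes the letters only, and no link between the windows and the array values was tested.

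**Figure D1:**
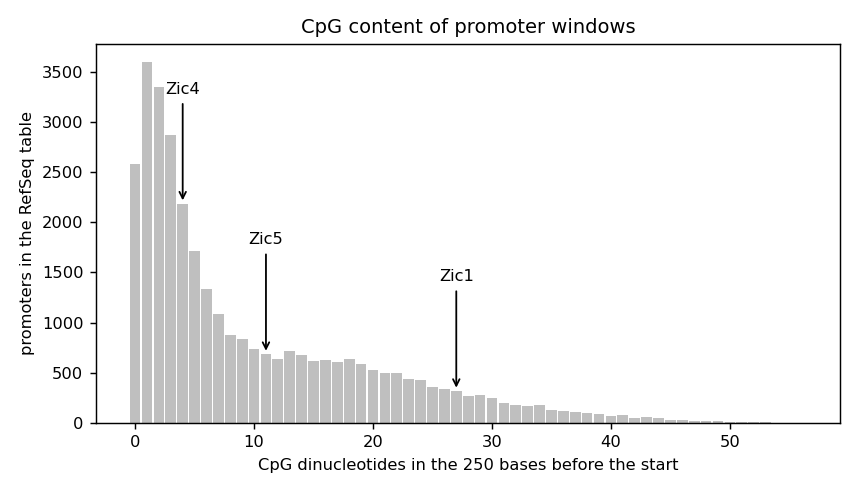
Number of promoter windows in the RefSeq table (y axis) by the number of CpG dinucleotides in the 250 bases before the start (x axis). Arrows mark Zic4 with 4, Zic5 with 11 and Zic1 with 27 CpG, against a median of 6 over 32851 windows.

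The question put to the arrays was which genes distinguish foregut endoderm from the tissues around it. Values are log2 intensities, and the lowest value of an array, from 2.25 to 2.28, is called its floor. A probe set within 0.1 of it gives only an upper bound on its level. No level is compared between probe sets, because probes differ in brightness. The samples of a tissue were not alike: 8 heart muscle markers had summed intensities of 10737 and 1297 in foregut endoderm 1 and 2, against 83 and 84161 in mesoderm and ectoderm 1 and 2, and 7 of the 8 had tissue differences of opposite sign in the experiments. Differences are therefore given within each experiment as well. In pooled tissue, fewer cells of a type and less RNA per cell cannot be told apart.

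Zic1, a factor of the dorsal neural plate and its crest, was low in foregut endoderm by both of its probe sets. Probe set 1439627_at read 2.96 and 2.27 in foregut endoderm 1 and 2, against 8.14 and 6.88 in mesoderm and ectoderm 1 and 2. Both endoderm samples lay far under both others, with the highest endoderm value 3.92 log2 units below the lowest other value and replicates at most 1.26 apart. Foregut endoderm 2 was at the floor, so the difference is a bound in size. It was -5.18 in the first experiment, or 36.2-fold lower in endoderm. In the second experiment endoderm was lower by at least 24.5-fold. The mean was 2.61 ± 0.49 in foregut endoderm, against 7.51 ± 0.89 in mesoderm and ectoderm (SD, n = 2 each), a log2 difference of -4.90 ± 0.61 (SE, limma).

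The other Zic1 probe set, 1423477_at, gave the same order of arrays. It read 3.69 and 2.27 in foregut endoderm 1 and 2, against 7.90 and 5.84 in mesoderm and ectoderm 1 and 2. The groups did not overlap, but the gap of 2.15 between them was barely wider than the 2.06 between the mesoderm and ectoderm samples. Foregut endoderm 2 was again at the floor, and the fold lower was 18.5 in the first and at least 11.9 in the second experiment. The log2 difference was -3.89 ± 0.97 (SE, limma), which is 1.00 smaller in size than that of 1439627_at.

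Zic2, the holoprosencephaly gene, was lower in foregut endoderm by its only probe set, 1421301_at. It read 3.83 and 2.57 in foregut endoderm 1 and 2, against 5.78 and 5.86 in mesoderm and ectoderm 1 and 2. The mesoderm and ectoderm samples were alike within 0.09, whereas the endoderm samples lay 1.26 apart and both below them. Endoderm was 3.84-fold lower in the first experiment and 9.79-fold lower in the second. The means were 3.20 ± 0.89 in foregut endoderm, against 5.82 ± 0.06 in mesoderm and ectoderm (SD, n = 2 each), and the log2 difference was -2.62 ± 0.55 (SE, limma).

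The 3 probe sets of Zic5 did not give 1 answer. Probe set 1456219_at read 5.33 and 4.54 in foregut endoderm 1 and 2, against 7.41 and 7.95 in mesoderm and ectoderm 1 and 2, a log2 difference of -2.74 ± 0.46 (SE, limma). Probe set 1456140_at read 3.40 and 2.58 in foregut endoderm, against 8.60 and 6.73 in mesoderm and ectoderm, a log2 difference of -4.68 ± 0.81. In both the groups stayed apart, by 2.08 and by 3.33 log2 units, and both gaps exceeded the widest spread within a tissue. Folds lower in endoderm were 4.22 and 10.6 in the first and second experiment by 1456219_at, and 37.0 and 17.7 by 1456140_at. The third, 1425666_at, was at the floor on 3 arrays and reached 3.03 in mesoderm and ectoderm 1 alone. The tissue differences of the other 2 differed by 1.93 log2 units, and which transcripts each probe set reads is not given in the sources used here.

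Zic4, the neighbour of Zic1, was not measured above the floor in either tissue. Its probe sets 1456417_at and 1421539_at both read 2.25 and 2.27 in foregut endoderm 1 and 2, against 2.28 and 2.28 in mesoderm and ectoderm 1 and 2. These values follow the floor of each array, so no tissue difference can be read from them.

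**Figure D2:**
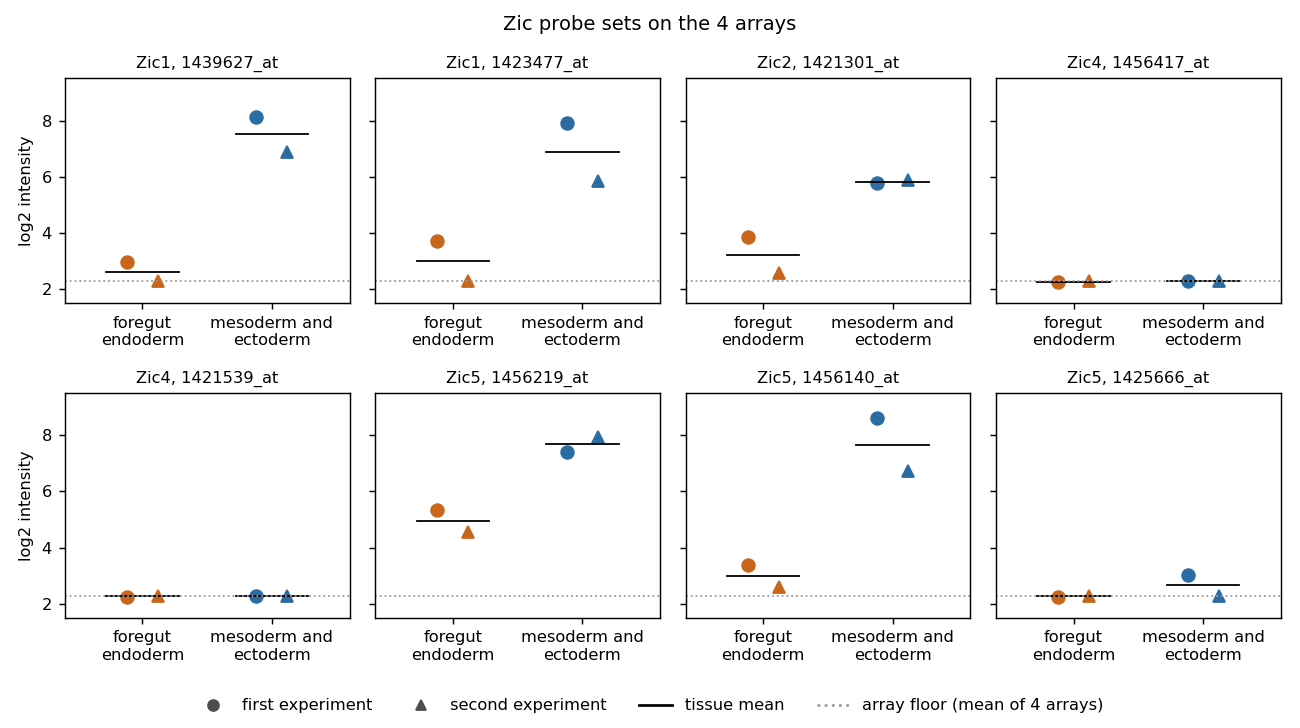
Log2 intensity (y axis) of the 8 Zic probe sets in foregut endoderm (orange, left) and in mesoderm and ectoderm (blue, right); circles are the first and triangles the second experiment, bars are tissue means and the dotted line is the mean array floor. Both Zic1 probe sets, Zic2 and 2 of the 3 Zic5 probe sets lie lower in foregut endoderm, while Zic4 stays at the floor.

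In all, 5 of the 8 probe sets, of 3 of the 4 genes, were at least 2-fold lower in foregut endoderm in both experiments, against 0.373% of the 45037 probe sets that are no controls, without a filter. These 5 are also the ones that had a log2 value above 5 on at least 2 arrays. All 5 passed that filter through mesoderm and ectoderm, so no count over them is given as support. Only 1456219_at also exceeded 5 in an endoderm sample, with 5.33 in foregut endoderm 1 and 4.54 in foregut endoderm 2. Just inside that filter lay Zic2, with 5.78 on its second brightest array, and outside it no second value exceeded 2.28. Of all 13288 probe sets that passed, 1.00% (133) were at least 2-fold lower and 3.57% (474) at least 2-fold higher in both experiments. That split depends on scaling, with 194 lower and 367 higher after quantile normalization and 211 lower and 347 higher after median centring. The 5 Zic probe sets were among the lower ones in each. Their differences are far larger than the shifts these scalings make, so this is not read as support.

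None of the members passed limma's test. Adjusted p was 0.724 and 1.00 for Zic1 (1439627_at and 1423477_at), 0.911 for Zic2 and 0.832 for each of the 2 Zic5 probe sets, while 0% of the 13288 probe sets were called between tissues. With limma, 395 of the 13288 probe sets were higher and 105 lower in endoderm at an unadjusted p under 0.05. The unadjusted p of the 5 Zic probe sets in limma lay between 0.0018 and 0.0185. It is not read as support, since they passed the filter through mesoderm and ectoderm. With the experiment as a block, limma called 0 as well (unadjusted p was under 0.05 for 968 higher and 358 lower probe sets), and the adjusted p of the members lay between 0.351 and 0.435. With any 1 array left out, the mean differences of the 5 lay between -5.62 and -1.99. An exact permutation test of 2 against 2 samples cannot give a two-sided p below 0.333. A count of 0 from 2 samples a tissue is not evidence of equal levels.

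**Figure D3:**
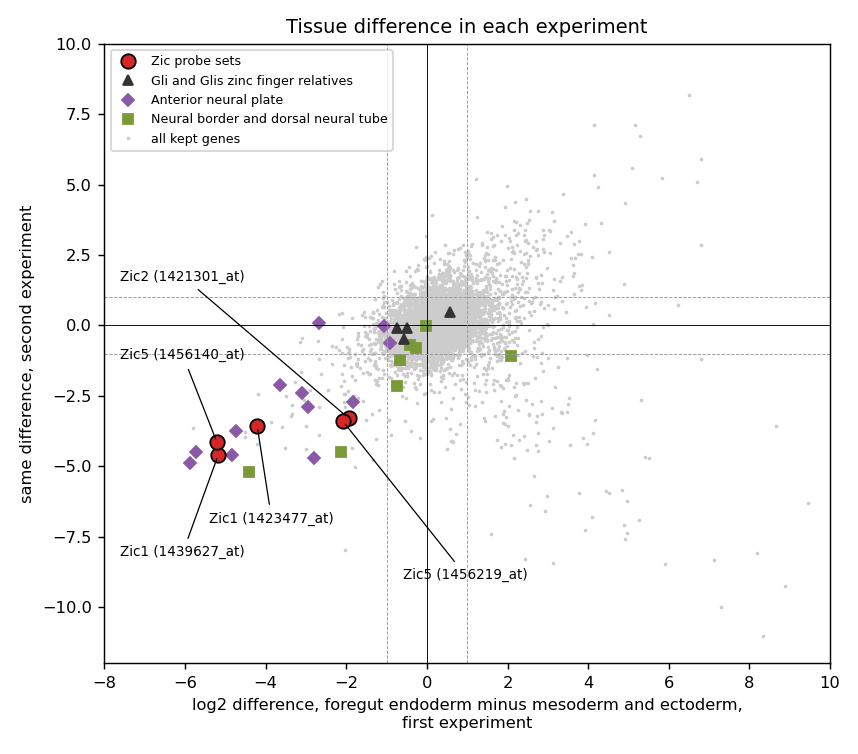
Log2 difference, foregut endoderm minus mesoderm and ectoderm, in the first (x axis) and the second experiment (y axis) for 7802 genes, with the Zic probe sets above the filter, 2 neural gene lists and the Gli and Glis genes marked; dashed lines are at 2-fold. The 5 Zic probe sets lie in the lower left with differences from -1.94 to -5.21 and from -3.29 to -4.61, whereas the 4 Gli and Glis genes above the filter lie between -0.75 and 0.58.

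The members' values also varied between the experiments within a tissue. In foregut endoderm all 5 probe sets above the filter were lower in the second experiment, with second minus first values from -0.69 to -1.42 log2 units. Both ends of that range are Zic1 probe sets, which were at the floor in foregut endoderm 2, so that they are bounds. In mesoderm and ectoderm the same difference was -1.26 (1439627_at) and -2.06 (1423477_at) for Zic1 and -1.88 for Zic5 (1456140_at). It was 0.09 for Zic2 and 0.54 for Zic5 through 1456219_at. Over both tissues the second minus first difference was -0.98 ± 0.28 and -1.74 ± 0.29 for Zic1, -0.59 ± 0.45 for Zic2 and -1.35 ± 0.38 and -0.12 ± 0.45 for Zic5 (1456140_at and 1456219_at; SE, limma with tissue as a term). The adjusted p in limma was 0.153, 0.104, 0.446, 0.153 and 0.873 in that order, and 0% of the 13288 probe sets were called. At an unadjusted p under 0.05, limma gave 2172 probe sets higher in the second experiment and 1824 lower. The count of 0 depends on scaling, as limma called 733 probe sets after quantile normalization, with no Zic probe set among them.

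Profiles over the 4 arrays, each centred on its own mean, fell into 2 kinds. Zic1 (1439627_at) and Zic5 (1456140_at) lay 0.50 apart in Euclidean distance on the log2 scale, and Zic2 lay 0.48 from Zic5 through 1456219_at. The 2 Zic5 probe sets lay 2.58 apart, and Zic1 and Zic2 lay 2.50 apart. So each Zic5 probe set lay closer to a probe set of another gene than to the other Zic5 probe set. The same held for Zic1, whose 2 probe sets lay 1.26 apart, with 1423477_at 0.90 from Zic5 1456140_at. Centring keeps the size of the tissue difference, so the distance partly restates it. That difference was -4.90, -3.89 and -4.68 for both Zic1 probe sets and Zic5 1456140_at, against -2.62 for Zic2 and -2.74 for Zic5 1456219_at. With 4 arrays this is a description without a test.

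**Figure D4:**
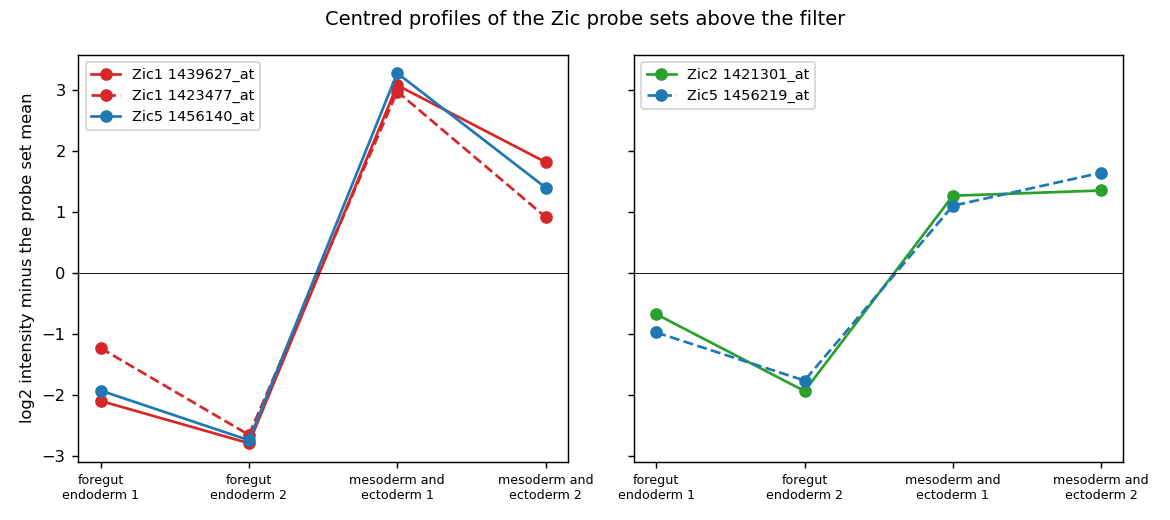
Log2 intensity minus the probe set's mean (y axis) on the 4 arrays (x axis) for the 5 Zic probe sets above the filter. On the left, both Zic1 probe sets and Zic5 1456140_at peak in mesoderm and ectoderm 1; on the right, the second minus first difference in mesoderm and ectoderm is 0.09 for Zic2 and 0.54 for Zic5 1456219_at.

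Among 7801 other genes, those nearest to Zic1 in this distance were Sp8 (0.57), an Sp family factor of forebrain patterning, Pax3 (0.70), the paired-box factor of the dorsal neural tube, Syt11 (0.73), a synaptotagmin, Pak3 (0.74), a kinase, and Pax6 (0.75), a factor of eye and forebrain. Pax6, for example, read 3.22 and 2.46 in foregut endoderm 1 and 2, against 7.97 and 6.20 in mesoderm and ectoderm 1 and 2. Nearest to Zic2, leaving out the Zic genes, were Stmn3 (0.32), a stathmin of neurons, the ephrin receptor Epha7 (0.51), the BMP-related ligand Gdf10 (0.61), Crmp1 (0.69), a collapsin response mediator of neurons, and Camk2n2 (0.73), an inhibitor of CaM kinase II. Zic5 (1456219_at), at 0.48, would rank 2nd among them. Epha7 read 5.64 and 4.56 in foregut endoderm, against 7.23 and 7.23 in mesoderm and ectoderm. For Zic5 (1456219_at) they were Camk2n2 (0.65), Stmn3 (0.69), the ephrin receptor Ephb1 (0.70), the forebrain factor Otx1 (0.72) and Epha7 (0.75), with Zic2 itself closer at 0.48. The lists for Zic2 and Zic5 1456219_at shared 3 of their 5 genes each, and that of Zic1 1439627_at shared none with either. No list was made for Zic5 1456140_at, which lay 0.50 from Zic1 1439627_at and 2.50 from Zic2. The sharing therefore describes these probe sets and not Zic5 as a gene.

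Few of the genes beside the Zic pairs had a signal in which a drop could be read. Of the 5 nearest genes on each side of either pair that had a probe set, 20 in all, 0 were at least 2-fold lower in endoderm in both experiments, against 0.654% of 18193 genes without a filter, and Ctsh, a lysosomal protease chosen after its values were seen, was the 1 that was higher (1.17 and 2.01; background 1.81%). Only 5 of the 20 passed the filter. The count of 0 lower genes lies near the background and is not read as a result about the neighbours. Beside Zic1 and Zic4, Tbc1d2b read 5.26 and 6.21 in foregut endoderm, against 5.29 and 5.40 in mesoderm and ectoderm, and the scramblase gene Plscr1 read 7.40 and 9.34, against 7.70 and 9.16. Beside Zic5 and Zic2, Ubac2, Tm9sf2 and Tmtc4 differed by -0.12 ± 0.31, 0.08 ± 0.30 and 0.79 ± 0.59 log2 units (SE, limma, adjusted p of 1.00 each). The noncoding 2610035F20Rik, which is annotated between Zic5 and Zic2 and was named after its values were seen, was at the floor on 3 arrays and at 2.64 in mesoderm and ectoderm 1. Another 6 of the 20 neighbours were at the floor on all 4 arrays.

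**Figure D5:**
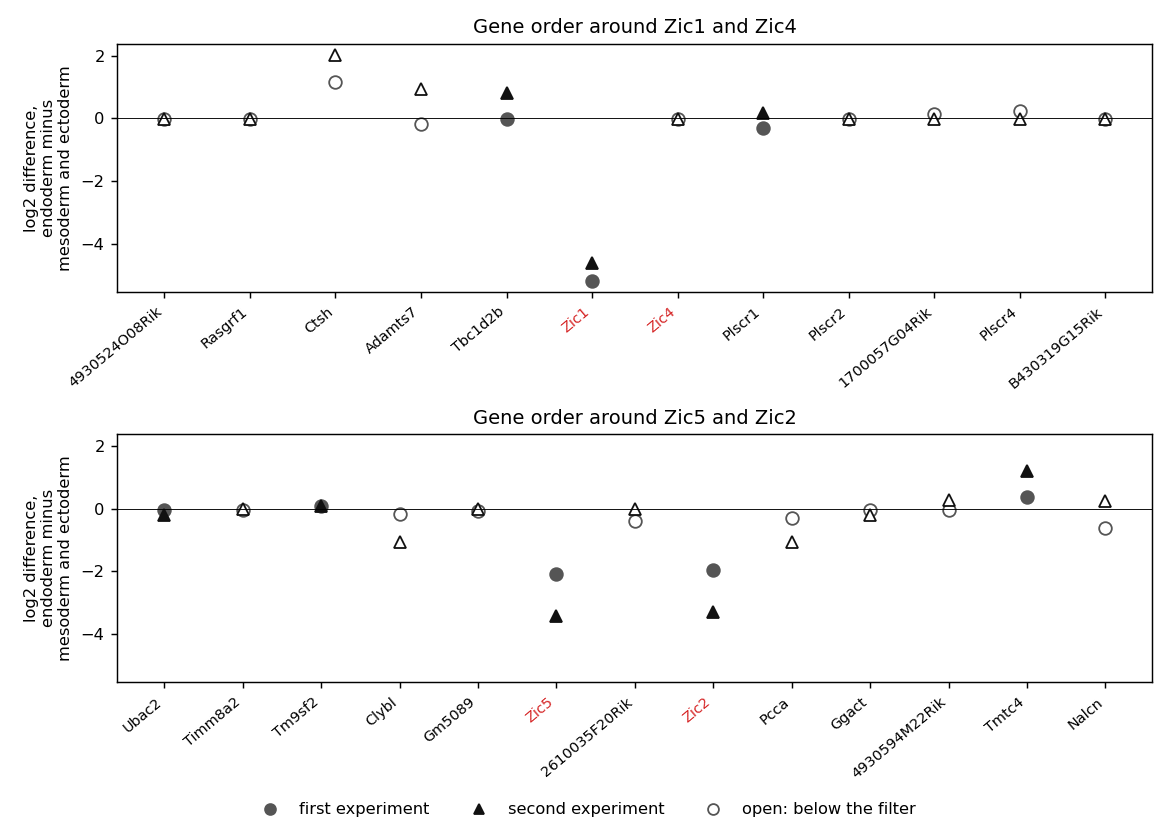
Log2 difference, foregut endoderm minus mesoderm and ectoderm (y axis), for genes in their order along chromosomes 9 (top) and 14 (bottom), with the brightest probe set of each gene; circles are the first and triangles the second experiment, and open symbols are below the filter. Zic1, Zic5 and Zic2 lie between -1.94 and -5.18, and the lowest of the other genes shown, Pcca, lies at -1.07 in the second experiment.

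The Gli and Glis relatives of the family lay closer to equal between tissues. Of the 6 Gli and Glis genes, 4 passed the filter, and 0 of the 6 reached 2-fold in 1 direction both times (background 0.654% lower and 1.81% higher of 18193 genes). That count lies near the background and is not read as a result. Gli2 and Gli3, which relay hedgehog signals, differed by -0.53 ± 0.64 and -0.29 ± 0.49 log2 units (SE, limma). Gli3 read 10.39 and 9.87 in foregut endoderm 1 and 2, against 10.88 and 9.95 in mesoderm and ectoderm 1 and 2, so its groups overlapped. Glis2 differed by 0.53 ± 0.44 and Glis3 by -0.42 ± 0.73, and the adjusted p in limma was 1.00 for each of the 4. Below the filter, Gli1, an effector and target of hedgehog signalling, differed by 1.09 in the first and -0.02 in the second experiment, and Glis1 by -0.24 and -0.32. Median differences of the 4 above the filter were -0.52 in the first and -0.09 in the second experiment, against 0.15 and 0.01 over 7802 genes.

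Genes that act beside Zic factors at the neural plate border were divided. Of 15 genes with a probe set, 3 were at least 2-fold lower in both experiments (background 0.654%) and 1 was higher (1.81%), and 0 passed limma's test. The lower ones were Pax3, Tfap2a and, below the filter, Pax7 (-2.83 and -2.42), a paralogue of Pax3, and the higher one was Gbx2 (1.65 and 2.91), also below the filter; Pax7 and Gbx2 were named after their values were seen. Pax3 read 4.27 and 3.01 in foregut endoderm 1 and 2, against 8.68 and 8.22 in mesoderm and ectoderm 1 and 2, a log2 difference of -4.81 ± 0.58 (SE, limma, adjusted p of 0.724). Tfap2a, the AP-2 factor of crest and surface ectoderm, read 8.29 and 4.78, against 10.42 and 9.27, and its gap of 3.52 between endoderm samples was wider than the mean difference of -3.31 ± 1.39. The border homeobox gene Dlx5 and the crest factor Sox10 differed by -1.45 ± 0.49 and -0.94 ± 0.34. Atoh1 and Lmx1a, of the later dorsal neural tube, were at the floor on all 4 arrays. Msx2, Wnt1 and Wnt3a were flat as well, each at a level of its own above the floor. Medians of the 8 above the filter were -0.54 and -1.15. Wnt3a, which read 5.59 to 5.63 on the 4 arrays and followed their floors, counts among these 8.

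Most anterior neural plate genes lay lower in endoderm. The 2-fold rule put 10 of 15 genes with a probe set on the lower side and 0 on the higher (background 0.654% and 1.81%), with medians of -3.02 and -2.81 over the 12 above the filter, and 0 passed limma's test. Emx2, a forebrain homeobox factor, was at the floor in both endoderm samples, against 7.07 and 6.87 in mesoderm and ectoderm 1 and 2. Fezf1, a forebrain repressor with zinc fingers, read 2.27 and 2.68 in endoderm, against 7.99 and 7.19, while Six3, a homeobox factor of forebrain and eye, read 5.50 and 5.61, against 8.60 and 8.01. Zic1 by both probe sets and Zic5 by 1456140_at lay below both medians, and Zic2 and Zic5 by 1456219_at nearer to the medians in the second experiment than in the first.

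Zic2 also belongs to the genes of holoprosencephaly, several of which act in hedgehog signalling. Among 15 others with a probe set, the 2-fold rule put 2 on the higher side in endoderm (background 1.81%) and 1 on the lower (0.654%), and Fgf8, a signal of the anterior neural ridge, was at the floor on all 4 arrays. Shh, the ligand, read 10.20 and 11.88 in foregut endoderm, against 7.05 and 8.17 in mesoderm and ectoderm, and Ptch1, its receptor and target, read 13.94 and 13.64, against 11.38 and 11.19. Six3 was the 1 lower gene, and Gas1, a Shh co-receptor, differed by -1.09 ± 0.54 (SE, limma). None of these passed limma's test, with an adjusted p of 0.724 for Ptch1 and 0.981 for Shh.

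Markers of the cell types that the samples could hold went with the Zic values in part. Of 10 neural plate markers 6 were at least 2-fold lower in endoderm in both experiments, and their summed intensity was 2022 and 4643 in foregut endoderm, against 6604 and 5787 in mesoderm and ectoderm (0.654% of 18193 genes were lower and 1.81% higher by this rule). The endoderm samples ranked the other way by the median log2 intensity of these markers, which was 4.99 and 4.71 in foregut endoderm 1 and 2, against 7.98 and 7.25 in mesoderm and ectoderm 1 and 2. Sox2 and Otx2 made up most of each neural plate sum. Sox2 read 10.57 and 11.71 in foregut endoderm 1 and 2, against 11.63 and 11.73 in mesoderm and ectoderm 1 and 2. Of 11 foregut endoderm markers 10 were at least 2-fold higher, with sums of 6206 and 16834, against 540 and 1366. Neural crest markers (7 with a probe set, of which Tfap2a was lower by the same rule) summed to 2603 and 927, against 2989 and 2281. Their median log2 intensity was 8.29 and 5.94, against 7.85 and 7.37, so in the first experiment it was higher in endoderm. Of the 6 above the filter, 4 were lower in endoderm in both experiments by any amount. Snai2 differed in sign between the experiments. Erbb3 was higher in endoderm in both, with 9.05 and 8.97, against 8.49 and 7.37 in mesoderm and ectoderm. Paraxial and head mesoderm markers (8, of which Prrx1 was higher, Tbx6 at the floor throughout) summed to 1760 and 209, against 435 and 466.

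Endothelial markers (6, Pecam1 at the floor throughout) summed to 494 and 55, against 73 and 307, and red blood cell markers (5, Alas2 at the floor throughout) to 2384 and 209, against 410 and 2445. Surface ectoderm markers (7, of which Tfap2c was lower, Krt14 at the floor throughout) summed to 226 and 151, against 1742 and 990. Krt5, Grhl3 and Wnt6 were flat too, each at a low level of its own, and Tfap2c made up most of each sum. Tfap2c read 7.33 and 6.59 in foregut endoderm 1 and 2, against 10.70 and 9.80 in mesoderm and ectoderm 1 and 2. Notochord and prechordal plate markers (5, of which Foxa2 and Shh were higher and Nog was at the floor throughout) summed to 1385 and 4205, against 180 and 338. Foxa2 and Shh are foregut endoderm markers as well, and Shh made up most of each sum, so this list is not a separate reading of notochord. Foregut endoderm 1 had the higher sum of the endoderm samples for neural crest, paraxial and head mesoderm, surface ectoderm, heart muscle, endothelial and red blood cell markers, and it had the higher value for the 5 Zic probe sets above the filter. For neural plate, foregut endoderm, and notochord and prechordal plate markers, foregut endoderm 2 had the higher sum. Mesoderm and ectoderm 1, where both Zic1 probe sets and Zic5 1456140_at were highest, was the sample with the least heart muscle signal. The other members above the filter were not higher there. Zic2 read 5.78 and 5.86 in mesoderm and ectoderm 1 and 2, and Zic5 1456219_at read 7.41 and 7.95. The part of these cell types in the Zic values was not tested.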

How the data were processed

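Intensities of 45101 probe sets were deposited for 4 Affymetrix mouse MOE430 arrays. RNA was amplified in 2 rounds, per the labels' protocols. The authors made the intensity values by GC-RMA normalization with GenePattern software, as the design text of the series states, and RMA is named per the submitters' processing notes, with versions and parameters not given in the sources used here. Their linear scale was read from the values, and log2 was taken here of the deposited intensities, none of which was below 1. Background correction sets the floor, at which 41.3% to 44.7% of an array's probe sets lay and below which differences are lost. Arrays have no read depth, and their number limits the precision.

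GEO's platform annotation, which can be old, named 34958 probe sets with 1 symbol and 932 with several, while 9211 had none; all 4 members matched the RefSeq gene table (GRCm38.p6) by gene identifier. The 64 control probe sets were left out, and 13288 probe sets with log2 above 5 on at least 2 arrays were kept. Two-sided tests between tissues used lmFit and eBayes of limma 3.58.1 (R 4.3.3) with Benjamini-Hochberg adjustment over all kept probe sets and a threshold of 0.05; between experiments, tissue was a term. The fits were also run on simulated data with the same noise for every probe set, which checks the estimates and not the power on these arrays. Sample numbers pair the samples, since the labels' protocols give the same dissection to a number; deviations of same-numbered samples correlated at 0.56 across probe sets. Alternatives were other filters, scalings, an offset, the block, gene level and arrays left out.

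Named genes were the members, up to 4 genes per list with the smallest p, all measured relatives and neighbours, and the 5 nearest profiles per member. For a gene with several probe sets the brightest above the filter was taken. Members and lists were chosen with earlier results of these data known.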

Additional observations from a re-analysis of the deposited data

Results flagged for a closer look

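Zic2 had second minus first differences of opposite sign in the tissues. It was -1.26 in foregut endoderm, against 0.09 in mesoderm and ectoderm, which differ by -1.35 log2 units, and the value of 0.09 is within the tolerance of 0.1 used for the floor. Zic5 through probe set 1456219_at did likewise, with -0.79 in foregut endoderm, against 0.54 in mesoderm and ectoderm, a difference of -1.33. With 1 sample of a tissue in each experiment, these differences were not tested.

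Of the neighbouring genes, Plscr1 had tissue differences of -0.30 in the first and 0.18 in the second experiment, which differ by 0.48 log2 units. Tbc1d2b had -0.03 and 0.82, which differ by 0.85, but its value of -0.03 equals the offset between the floors of the first experiment's arrays, so that its sign is not read as a direction. Neither difference was tested.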

How the results depend on the processing

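The tissue difference of each Zic probe set above the filter stayed negative and short of limma's threshold under every alternative that could be fitted. Leaving out 1 array at a time, the log2 difference ran from -5.53 to -4.27 and from -4.92 to -2.86 for Zic1 (1439627_at and 1423477_at), from -3.25 to -1.99 for Zic2, and from -5.62 to -3.74 and from -3.14 to -2.35 for Zic5 (1456140_at and 1456219_at). The replicate block left the differences as they were, gave limma SE of 0.28, 0.29, 0.45, 0.38 and 0.45 in that order, and changed no call: 0 probe sets were called, with a lowest adjusted p of 0.351. The offset of 16 shrank the sizes to -3.16 and -2.48 for Zic1, -1.49 for Zic2 and -3.20 and -2.24 for Zic5. A filter at log2 above 6 left out Zic2 and Zic1 1423477_at. Between experiments limma called 733 probe sets after quantile normalization and 423 after median centring, against 0 without them, and no Zic probe set was called; the cause was not tested. Probe sets at least 2-fold apart in both experiments numbered 474 higher and 133 lower in endoderm. The counts were 367 and 194 after quantile normalization, and 347 and 211 after median centring. Those scalings moved the median difference of all kept probe sets in the first experiment to -0.06 and -0.12, against 0.12 as deposited. Shifts of this size could not take the 5 Zic probe sets, which were among the lower ones each time, across the 2-fold line. Fits between experiments with an array left out were not run, since no residual degrees of freedom remain. Signal near the floor limits Zic4, Zic5 1425666_at and Zic1 in foregut endoderm 2.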
